A study of Mus musculus with 6 samples.

Results

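The genes described here are 39 skeletal muscle genes measured by bulk RNA sequencing in tumours of B16, a melanoma cell line of the mouse. They were chosen by gene symbol, as 39 of the 34665 rows of the deposited count matrix, and all 39 were found. They form 5 lists: 14 genes of fast fibres, 7 of slow fibres, 10 of the sarcomere and of excitation-contraction coupling shared by both fibre types, 5 of muscle metabolism, and 3 of satellite cells and myogenic regulation. The series holds 6 libraries of total RNA from whole tumours, all labelled as wild type in genotype. In the ICI group (n = 3, replicates 1, 2 and 3) the mice received an immune checkpoint inhibitor alone, and in the RT_ICI group (n = 3, replicates 1, 2 and 4) radiotherapy was combined with immunotherapy. Every group thus received the immune treatment, and no untreated tumour was analysed here. The labels leave out the antibody target, radiation dose, time of harvest, mouse strain and age, site of implantation and the position of the tumour relative to the irradiated field. They also do not state that each library came from a separate mouse, so the p-values reflect only how far these 6 libraries spread, which may be technical in part. The question behind the comparison is what differed when radiation was added to immunotherapy. The question behind the 39 genes is how much skeletal muscle transcript each tumour library carried, and from which fibre type.

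Skeletal muscle fibres are long multinucleate cells that contract when myosin heavy chains pull on actin filaments within the sarcomere. Mouse fibres are classed by their main heavy chain. Myh7 marks slow, oxidative type I fibres, Myh2 marks type IIa, Myh1 type IIx and Myh4 the fastest and most glycolytic class, type IIb. Troponins, regulatory light chains, calcium pumps and myosin-binding protein C also come in fast and slow forms. Satellite cells, the resident stem cells, carry the transcription factor Pax7, and Myod1 and Myog act as they turn into muscle. Most skeletal muscle of the mouse is built largely of fast fibres.

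The sequences upstream of the heavy chain genes that define the fibre types, and of Acta1, the skeletal muscle actin, are shown because the results below turn on these 5 genes. Myh2, Myh1 and Myh4 lie next to each other in this order on the plus strand of chromosome 11, within a cluster of striated muscle heavy chain genes, while Myh7 lies on chromosome 14 and Acta1 on chromosome 8. Each run is read 5′ to 3′ on the gene's own strand and ends at or before the start of transcription. All are from RefSeq on GRCm38.p6, cut where needed so that no transcribed base of the GENCODE gene model is included. Capitals mark matches to the E-box (CANNTG, the site of myogenic factors such as Myod1 and Myog), to the site of MEF2 and to the CArG box of serum response factor. All were searched on both strands.
Myh4 (chr11:67237562-67237811, plus strand): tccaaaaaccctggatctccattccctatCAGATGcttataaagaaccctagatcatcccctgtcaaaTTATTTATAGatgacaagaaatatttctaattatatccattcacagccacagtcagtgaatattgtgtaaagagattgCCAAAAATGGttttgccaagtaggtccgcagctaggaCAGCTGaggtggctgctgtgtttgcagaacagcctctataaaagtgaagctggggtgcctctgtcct
Myh1 (chr11:67199852-67200051, plus strand): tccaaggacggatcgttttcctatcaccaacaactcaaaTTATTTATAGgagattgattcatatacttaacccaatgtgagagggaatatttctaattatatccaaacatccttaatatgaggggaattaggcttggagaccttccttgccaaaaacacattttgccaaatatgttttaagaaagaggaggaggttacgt
Myh2 (chr11:67170777-67171026, plus strand): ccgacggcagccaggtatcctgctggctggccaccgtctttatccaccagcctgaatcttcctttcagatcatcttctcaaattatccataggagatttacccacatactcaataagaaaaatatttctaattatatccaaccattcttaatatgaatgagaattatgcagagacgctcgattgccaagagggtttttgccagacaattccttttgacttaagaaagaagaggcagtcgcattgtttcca
Myh7 (chr14:54994627-54994876, minus strand): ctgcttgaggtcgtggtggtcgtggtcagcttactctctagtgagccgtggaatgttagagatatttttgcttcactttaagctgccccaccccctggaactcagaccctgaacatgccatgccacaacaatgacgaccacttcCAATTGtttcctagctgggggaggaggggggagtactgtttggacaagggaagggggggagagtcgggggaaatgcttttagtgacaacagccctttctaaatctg
Acta1 (chr8:123894776-123895025, minus strand): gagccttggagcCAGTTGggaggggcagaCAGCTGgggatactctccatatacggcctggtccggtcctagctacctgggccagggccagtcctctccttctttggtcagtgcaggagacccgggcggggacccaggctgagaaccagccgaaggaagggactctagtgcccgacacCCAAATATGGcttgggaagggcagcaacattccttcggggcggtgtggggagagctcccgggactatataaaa
A run of 10 bases matching the MEF2 site, TTATTTATAG, stood in the upstream sequence of both Myh4 and Myh1. Myh4 also held 2 E-boxes and 1 CArG box, Acta1 held 2 E-boxes and 1 CArG box, the Myh7 run held 1 E-box and that of Myh2 held no match. Of the 39 genes, 31 matched the RefSeq table. A gene was counted when any of its listed starts had a match in the 250 bases before it. E-boxes were found for 83.9% of the 31 genes against 69.3% of all 27025 genes, MEF2 sites for 16.1% against 3.4%, and CArG boxes for 16.1% against 1.6%. E-boxes shared no base with the other motifs in the runs printed. These matches are a description of letters, and binding was not measured.

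Library totals ranged from 22543721 to 45624013 counts. Melanocyte genes (Pmel, Dct, Tyrp1, Mlana and 4 others) took between 0.959% and 1.65% of counts in every library, so markers of the labelled melanoma cells were present in all 6. RT_ICI replicate 1 stood apart, with counts in 29748 rows against 22763 to 24891 in the other 5 libraries. Mitochondrially encoded genes took 4.39% to 5.01% of counts in ICI and 11.5% to 14.7% in RT_ICI, so that this share moved with the groups. The part of these differences in the results below was not tested, except that scaling without the mitochondrially encoded genes gave the same single call among the 39 (8.9% of all genes called).

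Muscle transcript was a small part of every library, and its amount differed far more between single libraries than between groups. Together the 39 genes took 0.0474%, 0.0391% and 0.00707% of counts in ICI replicates 1, 2 and 3, and 0.338%, 0.191% and 0.0128% in RT_ICI replicates 1, 2 and 4. RT_ICI replicates 1 and 2 were therefore the highest, ICI replicates 1 and 2 lay between, and ICI replicate 3 and RT_ICI replicate 4 were the lowest, so that the groups overlapped. The 95% Wilson intervals, which cover counting error only, ran from 0.336% to 0.340% in RT_ICI replicate 1 and from 0.00682% to 0.00732% in ICI replicate 3. By group the share averaged 0.0312% ± 0.0213 (SD, n = 3) for ICI and 0.181% ± 0.163 (SD, n = 3) for RT_ICI. In a bulk library more muscle fibre in the piece and more of these transcripts per fibre cannot be told apart.

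**Figure D1:**
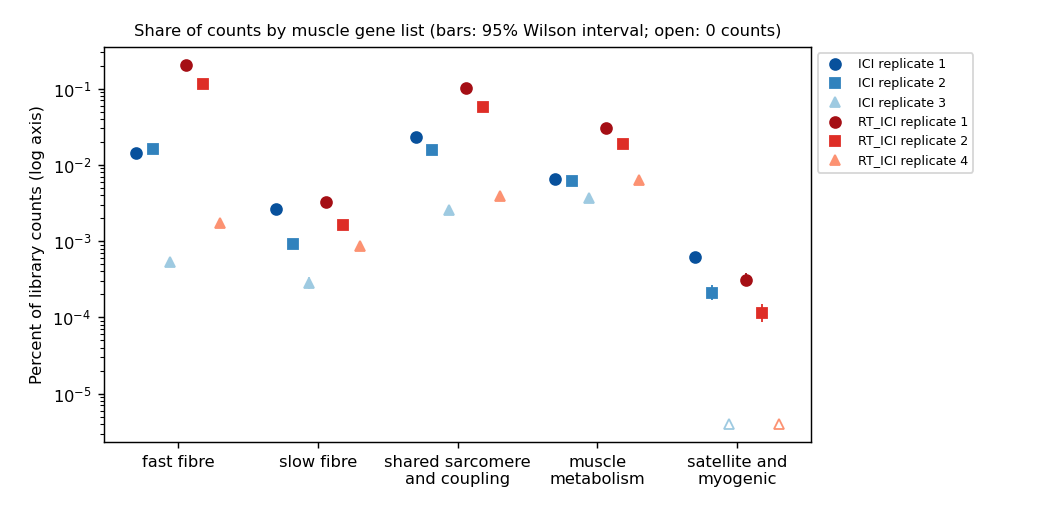
Percent of library counts taken by each of the 5 muscle gene lists (log axis), 1 symbol per library, blue for ICI and red for RT_ICI, with 95% Wilson intervals as bars and open symbols for 0 counts. The fast list spans from 0.000540% in ICI replicate 3 to 0.204% in RT_ICI replicate 1, while the slow list stays between 0.000283% and 0.00328%.

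The fast fibre genes spanned the widest range. Their summed level, in TMM-normalised CPM (the count scaled to library size), was 131, 155 and 4.87 in ICI replicates 1, 2 and 3, and 2375, 1166 and 18.4 in RT_ICI replicates 1, 2 and 4. The highest library was 487.5 times the lowest. The extremes lay in different groups, but RT_ICI replicate 4 fell below ICI replicates 1 and 2.

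Myh4, the type IIb heavy chain, varied most in this list. It measured 1.90, 13.3 and 0.0418 CPM in ICI replicates 1, 2 and 3, and 692, 300 and 1.21 CPM in RT_ICI replicates 1, 2 and 4. RT_ICI replicates 1 and 2 were far above all others, yet RT_ICI replicate 4 was below 2 of the 3 ICI libraries. Its log2 fold change was 6.03 with an SE of 2.56 and an edgeR adjusted p of 0.184, so it was not called. DESeq2 called it, with an adjusted p of 0.0255.

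Of the other heavy chains of fast fibres, Myh1 had the order of libraries of Myh4 over a narrower range in RT_ICI, and Myh2 had another order. Myh1, of type IIx, measured 17.8, 20.3 and 0.0418 CPM in ICI and 71.5, 36.6 and 0.653 CPM in RT_ICI (same replicate order throughout). Myh2, of type IIa, measured 8.42, 5.18 and 0 CPM in ICI and 2.41, 5.003 and 0.0933 CPM in RT_ICI. Myh1 was thus highest in RT_ICI replicates 1 and 2, whereas Myh2 was highest in ICI replicates 1 and 2, and in both cases ICI replicate 3 and RT_ICI replicate 4 were near 0. The 0 counts of Myh2 in ICI replicate 3 allow a level of up to 0.0627 CPM, which is 3 counts. Neither gene passed the test, with log2 fold changes of 1.52 (SE 1.90) for Myh1 and -0.83 (SE 1.77) for Myh2 and edgeR adjusted p of 0.619 and 0.780.

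The thin filament regulators of fast fibres came next in abundance. Tnnt3, fast troponin T, which anchors the troponin complex on tropomyosin, measured 25.9, 29.2 and 0.146 CPM in ICI and 537, 255 and 3.36 CPM in RT_ICI. Tnni2, fast troponin I, which blocks myosin binding at rest, measured 15.01, 16.4 and 0.125 CPM in ICI and 303, 140 and 2.43 CPM in RT_ICI. Both had the order of libraries seen for the summed list. Atp2a1, the calcium pump SERCA1 of fast fibres, measured 10.9, 15.6 and 0.376 CPM in ICI and 290, 166 and 3.03 CPM in RT_ICI. Actn3, the fast-fibre actinin of the Z-disc, measured 13.1, 11.7 and 0.376 CPM in ICI and 225, 104 and 1.63 CPM in RT_ICI. All 4 genes were highest in RT_ICI replicates 1 and 2 and lowest in ICI replicate 3, and their groups overlapped. Their log2 fold changes lay between 3.73 and 4.10 and their edgeR adjusted p between 0.210 and 0.281.

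Among the remaining fast genes, Mylpf and Myl1, the fast light chains, reached 82.9 and 61.7 CPM in RT_ICI replicate 1, and Mybpc2, fast myosin-binding protein C, reached 64.0 CPM. Myoz1, a Z-disc partner of calcineurin, reached 25.9 CPM in the same library, and Pvalb, the calcium buffer parvalbumin, reached 21.5 CPM in RT_ICI replicate 2. Casq1, the calcium store protein calsequestrin, stood apart from them, with all 6 libraries between 1.80 and 4.04 CPM. Tnnc2, fast troponin C, was nearly absent, with at most 3 counts in any library. In the annotation 74% of its exon bases lie under Ube2c on the other strand, and Ube2c, a cell cycle gene, held 1657 to 5582 counts per library. The sources used here do not say whether the counting used strand, so the Tnnc2 count was not usable as a fibre marker.

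The slow fibre genes were lower in sum and had another order of libraries. Their summed level was 24.4, 8.86 and 2.55 CPM in ICI and 38.2, 16.7 and 9.01 CPM in RT_ICI. ICI replicate 1 came second here, above RT_ICI replicate 2, and the highest library was 14.96 times the lowest. Most of the sum in RT_ICI replicates 1 and 2 was 1 gene, Mybpc1, slow-type myosin-binding protein C, which measured 8.94, 3.85 and 0.0209 CPM in ICI and 33.5, 11.2 and 1.12 CPM in RT_ICI. Like most fast genes and unlike the rest of its list, Mybpc1 was highest in RT_ICI replicates 1 and 2, and it is known to be made by many fast fibres as well.

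The other 6 slow genes were all highest in ICI replicate 1. Myh7, the type I heavy chain, measured 3.28, 0.0252 and 0.0627 CPM in ICI and 0.106, 0 and 0.513 CPM in RT_ICI. It was clearly above the floor of 3 counts in ICI replicate 1 (114 counts) and RT_ICI replicate 4 (11 counts), and at 3 counts or fewer in the other 4. Of its longest transcript, 10.2% is nearly identical to Myh6, the cardiac heavy chain, which held 20 to 167 counts per library, so the lowest Myh7 counts are uncertain. Myl2, the slow regulatory light chain, measured 1.15, 0.302 and 0.0418 CPM in ICI and 0.213, 0.158 and 0.280 CPM in RT_ICI. Myl3, the slow essential light chain, measured 0.891, 0 and 0.0418 CPM in ICI and 0, 0.0451 and 0.140 CPM in RT_ICI. For both, ICI replicate 1 alone stood clear of the rest.

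The slow troponins varied less than the other slow genes. Tnnt1 measured 4.57, 2.64 and 1.51 CPM in ICI and 1.99, 3.00 and 3.64 CPM in RT_ICI. Tnni1 measured 2.85, 1.26 and 0.627 CPM in ICI and 1.99, 1.42 and 2.71 CPM in RT_ICI. Tnnc1, a troponin C that the heart uses too, measured 2.70, 0.780 and 0.251 CPM in ICI and 0.355, 0.902 and 0.607 CPM in RT_ICI. ICI replicate 1 was the highest for all 3, and RT_ICI replicate 4, nearly empty of fast transcripts, was the second highest for Tnnt1 and Tnni1. The 4 tested slow genes had log2 fold changes of -0.01 (Tnnt1, SE 0.44), 0.37 (Tnni1, SE 0.55), -0.97 (Tnnc1, SE 0.80) and 1.85 (Mybpc1, SE 1.73). No slow gene passed the test, with edgeR adjusted p from 0.433 to 0.987, and Myh7, Myl2 and Myl3 were too low to be tested.

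**Figure D2:**
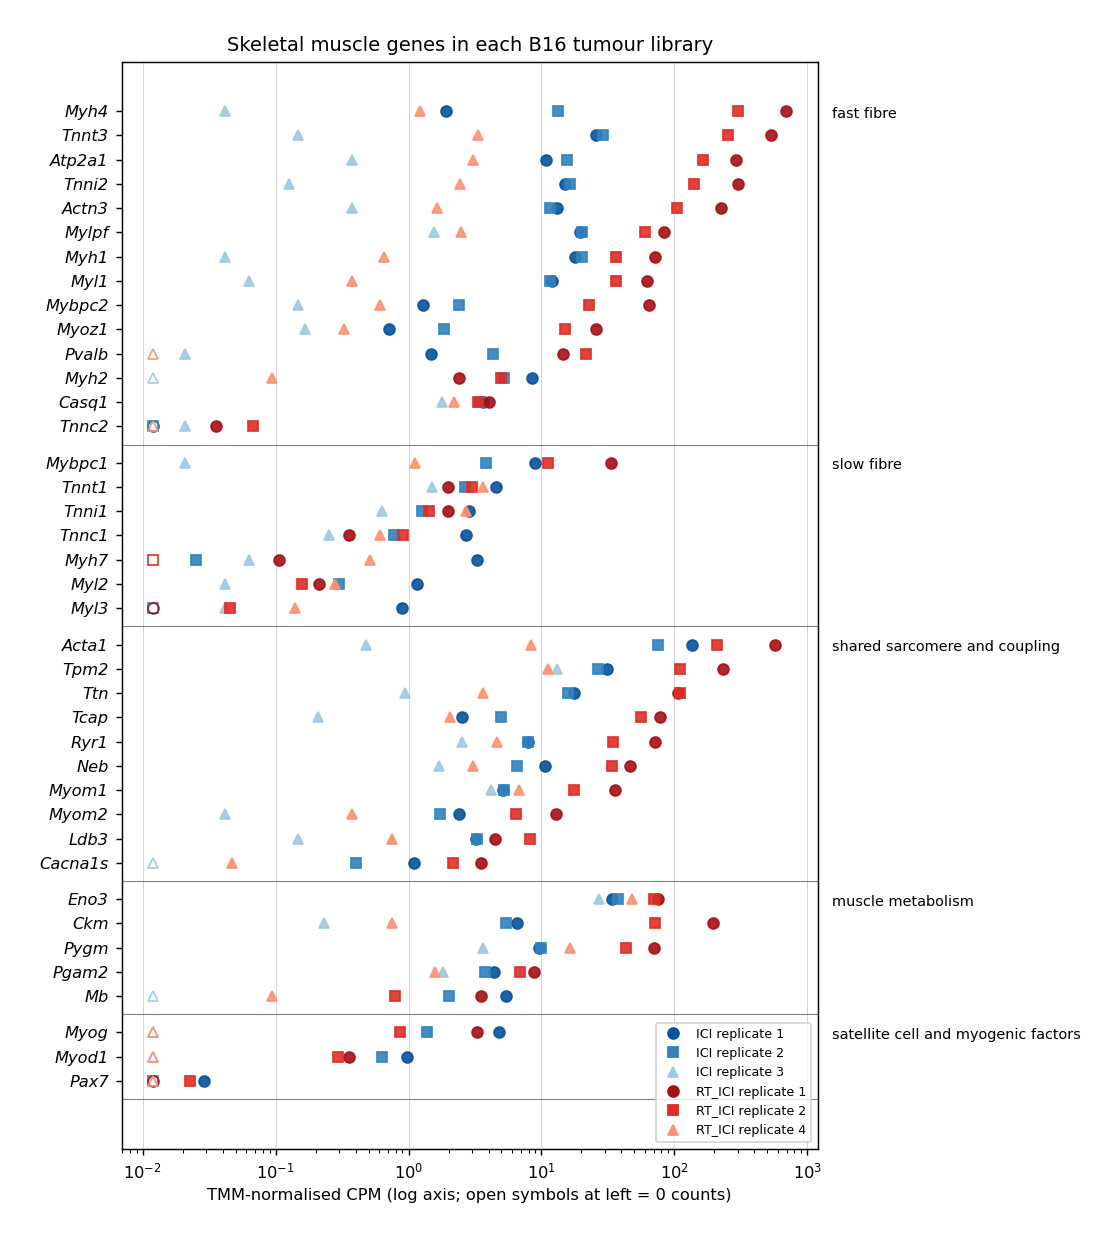
Level of each of the 39 genes (TMM-normalised CPM, log axis) in the 6 libraries, grouped by list, with open symbols at the left edge for 0 counts. Fast genes such as Myh4 lie furthest right in RT_ICI replicates 1 and 2, slow genes such as Myh7 in ICI replicate 1, and triangles (ICI replicate 3 and RT_ICI replicate 4) lie furthest left for most genes.

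Of the 39 genes, 28 had their 2 lowest libraries in ICI replicate 3 and RT_ICI replicate 4, 1 library of each group. The highest library was RT_ICI replicate 1 for 24 genes, ICI replicate 1 for 11 and RT_ICI replicate 2 for 4. The 11 that peaked in ICI replicate 1 were 6 slow genes, Myh2, Mb and all 3 satellite cell and myogenic genes. In ICI replicate 3, 16 of the 39 genes had 3 counts or fewer, against 9 in RT_ICI replicate 4. Of the 29 genes with counts in every library, 6 spanned at least 1000-fold between libraries (Myh1, Myh4, Tnnt3, Tnni2, Mybpc1 and Acta1), and 6 spanned less than 10-fold (Casq1, Tnnt1, Tnni1, Myom1, Eno3 and Pgam2). Where a lowest library holds only a few counts, as for Myh1 and Myh4 with 2 counts each, such a span is known only roughly.

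Within a library, the shares of the 4 heavy chains describe the fibre make-up without regard to how much muscle there is. In ICI replicate 1, 1092 heavy chain counts divided into 56.7% Myh1, 26.8% Myh2, 10.4% Myh7 and 6.04% Myh4. Those of ICI replicate 2, 1541 in number, divided into 52.2% Myh1, 34.3% Myh4, 13.4% Myh2 and 0.0649% Myh7. Both ICI libraries were thus led by type IIx, but they differed in the second chain: the Wilson interval of the Myh4 share was 4.78% to 7.62% in replicate 1 and 32.0% to 36.7% in replicate 2. RT_ICI replicate 1, with 21606 heavy chain counts, was 90.3% Myh4 and 9.34% Myh1, with 0.315% Myh2. RT_ICI replicate 2, with 15159, was 87.8% Myh4, 10.7% Myh1 and 1.46% Myh2. Type IIb transcript therefore made up most of the heavy chain of these 2 libraries, and Myh7 was at 3 and 0 counts there, the latter allowing up to 0.0253% by the upper Wilson bound.

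The make-up of RT_ICI replicate 4 rested on only 53 counts and was mixed. Its Myh4 share was 49.1% (Wilson interval 36.1% to 62.1%), that of Myh1 26.4%, that of Myh7 20.8% (12% to 33.5%) and that of Myh2 3.77%. The Myh4 share was below that of the other 2 RT_ICI libraries beyond counting error, and it overlapped that of ICI replicate 2. ICI replicate 3 held only 7 heavy chain counts, fewer than the 20 required, and its make-up was not described. With 2 usable ICI libraries and 1 of the 3 RT_ICI libraries apart from its group, the make-up was not tested between the groups. Dividing by exon length left the leading chain of each of the 5 libraries in place.

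**Figure D3:**
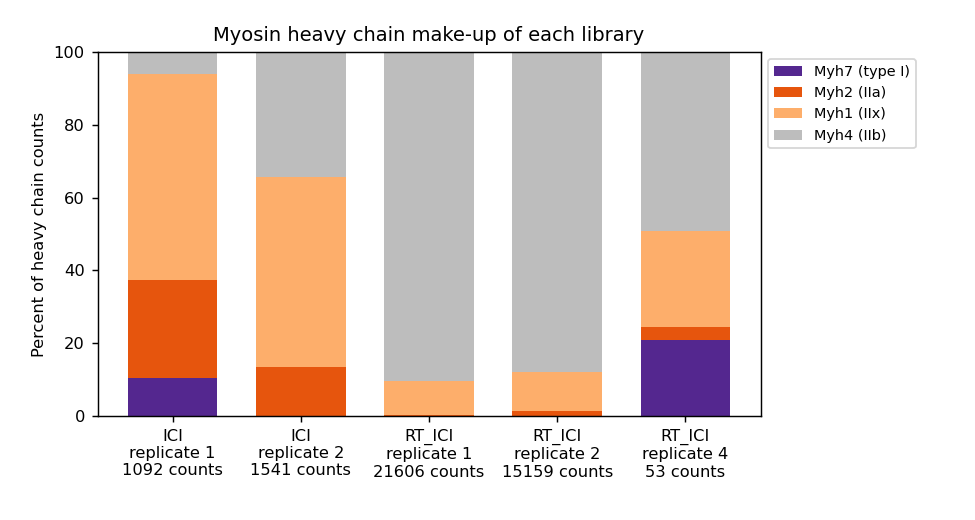
Share of each myosin heavy chain in the summed counts of Myh1, Myh2, Myh4 and Myh7 (percent, bars add to 100), for the 5 libraries with at least 20 such counts, with the number of counts under each bar. Myh4 fills 90.3% and 87.8% of RT_ICI replicates 1 and 2, Myh1 leads in both ICI libraries, and Myh7 is visible only in ICI replicate 1 and in RT_ICI replicate 4.

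The fast and slow forms of the same protein can be set against each other per kilobase of exon. For troponin T, the ratio of Tnnt3 to Tnnt1 was 7.88, 15.4 and 0.135 in ICI and 377, 119 and 1.29 in RT_ICI. For troponin I, the ratio of Tnni2 to Tnni1 was 12.7, 31.3 and 0.481 in ICI and 367, 238 and 2.16 in RT_ICI. In ICI replicate 3 both slow troponins were thus above their fast forms, and in the other 5 libraries the fast form was above the slow one, by the smallest ratios in RT_ICI replicate 4. The regulatory light chains gave a ratio of Mylpf to Myl2 of 30.9 and 122 in ICI replicates 1 and 2, and of 716, 696 and 16.2 in RT_ICI. No ratio is given for ICI replicate 3, where Myl2 had 2 counts.

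Myosin-binding protein C behaved differently from the other pairs. The ratio of Mybpc2 to Mybpc1 was 0.181 and 0.778 in ICI replicates 1 and 2, and 2.40, 2.55 and 0.679 in RT_ICI. The slow-type form thus led in 3 of the 5 libraries that gave a ratio, including ICI replicates 1 and 2, where the fast troponins T and I and the fast regulatory light chain led their pairs. Summed over the lists, the level per kilobase of the fast genes was 7.499, 23.0 and 2.61 times that of the slow genes in ICI, and 106, 97.5 and 2.70 times in RT_ICI. The ratios of ICI replicate 3 and RT_ICI replicate 4 were close to each other and the lowest. With Mybpc1, Casq1 and Myoz1 left out of the lists, the ratios became 9.33, 29.9 and 1.74 in ICI and 506, 182 and 2.51 in RT_ICI, with the same 2 libraries lowest. Mylpf and Casq1 make up much of the little fast signal in ICI replicate 3, at 1.46 and 0.922 CPM per kilobase.

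The shared sarcomere and coupling genes, which both fibre types use, were likewise highest in RT_ICI replicates 1 and 2 and lowest in ICI replicate 3. Their summed level was 218, 148 and 23.3 CPM in ICI and 1169, 591 and 40.9 CPM in RT_ICI. Acta1, the actin of the skeletal thin filament, measured 136, 75.8 and 0.481 CPM in ICI and 576, 211 and 8.36 CPM in RT_ICI. Per kilobase it was the leading gene of the 39 in ICI replicates 1 and 2 and in RT_ICI replicate 1, and came second to Tnnt3 in RT_ICI replicate 2. Its log2 fold change was 1.91 with an SE of 1.99 (edgeR adjusted p 0.550).

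The giant proteins and caps of the sarcomere had the same libraries at the top and the bottom. Ttn, titin, the spring that spans from Z-disc to M-band, measured 17.5, 15.8 and 0.941 CPM in ICI and 107, 110 and 3.64 CPM in RT_ICI. Tcap, which caps titin at the Z-disc, measured 2.53, 4.96 and 0.209 CPM in ICI and 77.7, 56.5 and 2.05 CPM in RT_ICI. Ryr1, the calcium release channel, measured 7.96, 7.98 and 2.51 CPM in ICI and 71.6, 34.3 and 4.62 CPM in RT_ICI. Each was high in RT_ICI replicates 1 and 2, with RT_ICI replicate 4 within the range of ICI. Tpm2, beta-tropomyosin, which lies along actin and is also made outside skeletal muscle, measured 31.0, 26.5 and 13.1 CPM in ICI and 233, 111 and 11.2 CPM in RT_ICI. It kept a level above 10 CPM in the 2 libraries where Acta1 was lowest. The adjusted p of these 4 genes ran from 0.156 to 0.284 by edgeR.

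Myom1, an M-band protein that links myosin to titin, was the only gene of this list whose groups did not overlap. It measured 5.17, 5.18 and 4.16 CPM in ICI and 35.8, 17.4 and 6.77 CPM in RT_ICI. All RT_ICI libraries were above all ICI libraries, the lowest of them by little. Its log2 fold change was 2.05 (SE 0.55) with an edgeR adjusted p of 0.0628, which misses the threshold of 0.05. The other genes of the list, Neb, Ldb3, Myom2 and Cacna1s, had log2 fold changes from 1.04 to 2.26 and did not pass. Neb encodes nebulin, the ruler of the thin filament, and was highest of these, at up to 46.6 CPM in RT_ICI replicate 1.

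Muscle metabolism held the 1 gene of the 39 that was called. Eno3, the muscle form of enolase in glycolysis, measured 33.8, 37.5 and 27.3 CPM in ICI and 74.9, 70.6 and 47.8 CPM in RT_ICI. Every RT_ICI library was above every ICI library, and ICI replicate 3 and RT_ICI replicate 4, almost without Acta1, kept over 20 CPM. Its log2 fold change was 0.97 (SE 0.20) with an edgeR adjusted p of 0.0346. The call was lost when ICI replicate 1, 2 or 3 or RT_ICI replicate 2 was left out (adjusted p 0.152, 0.0554, 0.112 and 0.105), and it was kept without RT_ICI replicate 1 (0.0311) or replicate 4 (0.0484). Eno3 made up 42.9% of all counts of the 39 genes in ICI replicate 3 and 35.4% in RT_ICI replicate 4, against 1.90% in RT_ICI replicate 1.

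Pygm, the muscle glycogen phosphorylase, measured 9.66, 10.01 and 3.66 CPM in ICI and 70.2, 43.2 and 16.5 CPM in RT_ICI. Its groups did not overlap either, and its log2 fold change was 2.48 (SE 0.63) with an edgeR adjusted p of 0.0602. Ckm, the creatine kinase that buffers ATP in contracting fibres, measured 6.50, 5.44 and 0.230 CPM in ICI and 194, 71.2 and 0.747 CPM in RT_ICI. Ckm, like Myh4, was highest in RT_ICI replicates 1 and 2, with RT_ICI replicate 4 below ICI replicates 1 and 2, and did not pass (log2 fold change 4.47, SE 1.97, edgeR adjusted p 0.197). Pgam2, the muscle phosphoglycerate mutase, stayed between 1.59 and 8.83 CPM in all libraries. Mb, myoglobin, the oxygen store of oxidative fibres, went another way, from 0 CPM in ICI replicate 3 to 5.41 CPM in ICI replicate 1, with 3.51, 0.789 and 0.0933 CPM in RT_ICI. Mb was thus highest in an ICI library, as Myh2 and the slow genes other than Mybpc1 were.

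The satellite cell and myogenic genes were scarce. Pax7, which marks satellite cells, had 1 count in ICI replicate 1, 1 in RT_ICI replicate 2 and 0 in the other 4 libraries, and so was not detectable above the floor of 3 counts in any library. Myod1, the factor of muscle commitment, measured 0.978, 0.629 and 0 CPM in ICI and 0.355, 0.293 and 0 CPM in RT_ICI. Myog, myogenin, the factor of terminal differentiation, measured 4.80, 1.38 and 0 CPM in ICI and 3.30, 0.856 and 0 CPM in RT_ICI. Both were detected in replicates 1 and 2 of each group. They were at 0 counts in ICI replicate 3 and RT_ICI replicate 4, where up to 0.0627 and 0.14 CPM are allowed. ICI replicate 1 was the highest for both. Their log2 fold changes were -1.19 (SE 1.31) and -0.55 (SE 1.81), with edgeR adjusted p of 0.562 and 0.860.

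Set against Acta1 in the same library, Myh4 and Ckm had their highest values in other libraries than Myog, Myod1, Mb and Myh2. Per 1000 Acta1 counts, Myh4 had 13.9 and 176 counts in ICI replicates 1 and 2, and 1201, 1421 and 145 in RT_ICI. Ckm had 47.7 and 71.7 in ICI replicates 1 and 2, and 336, 337 and 89.4 in RT_ICI. Myog had 35.3 and 18.3 in ICI replicates 1 and 2, and 5.72, 4.06 and 0 in RT_ICI. Myh4 and Ckm per Acta1 were thus highest in RT_ICI replicates 1 and 2, where Myog per Acta1 was lower than in ICI replicates 1 and 2. Myod1 had the same pattern, with 7.18 and 8.30 in ICI replicates 1 and 2 and 0.616 and 1.39 in RT_ICI replicates 1 and 2. Myoglobin had 39.7 and 26.6 in those ICI libraries and 6.09, 3.74 and 11.2 in RT_ICI. Of the other fast heavy chains, Myh2 had 61.8 and 68.4 against 4.19, 23.7 and 11.2 in RT_ICI, and Myh1 had 131 and 267 against 124, 174 and 78.2, so that fast genes did not all follow Myh4 on this scale. In ICI replicate 3 Acta1 had only 23 counts, and its ratios are left out. No test was made of these ratios.

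**Figure D4:**
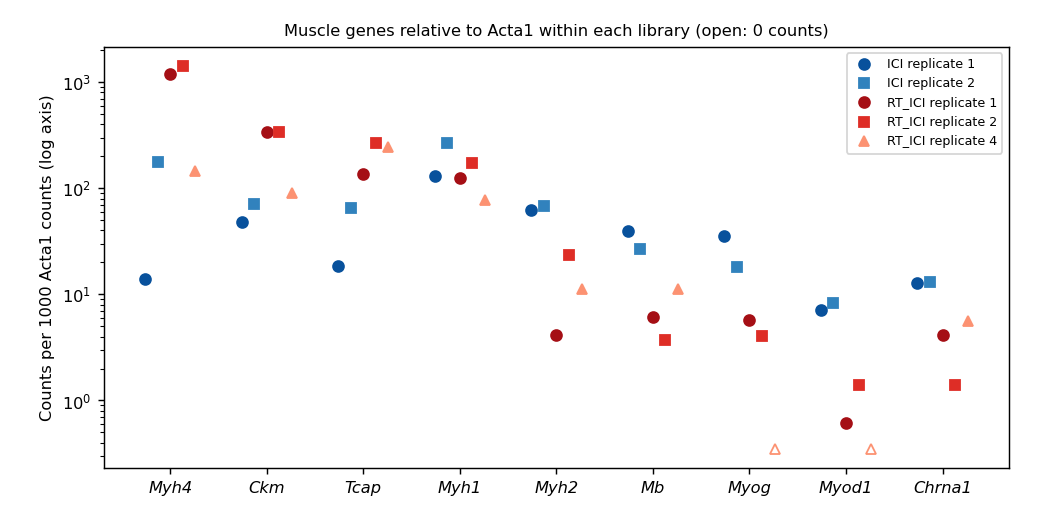
Counts of 9 muscle genes per 1000 counts of Acta1 in the same library (log axis), for the 5 libraries other than ICI replicate 3, with open symbols for 0 counts. Myh4 and Ckm are highest in RT_ICI replicates 1 and 2 (red circles and squares), and Mb, Myog and Myod1 are highest in ICI replicates 1 and 2 (blue).

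Across the whole comparison, 34 of the 39 genes passed the filter on low counts and 1 of the 34 was called, Eno3, higher in RT_ICI. None was called lower, and 5 had an unadjusted p under 0.05. Over all 16924 tested genes 9.18% were called, 4.46% higher and 4.72% lower, and 31.5% had an unadjusted p under 0.05. The groups did not overlap for 3 of the 34 (Eno3, Pygm and Myom1, all higher in RT_ICI), against 37.2% of all tested genes, 17.8% in that direction and 19.4% in the other. These shares were not above the background, although the fold changes were large: the median log2 fold change was 2.06 over the 34 genes against 0.014 over all tested genes, and 28 lay above 0 and 6 below.

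By list, the median log2 fold change was 3.73 for the 13 tested fast genes, 2.21 for the 10 shared genes, 0.97 for the 5 metabolic genes, 0.18 for the 4 tested slow genes and -0.87 for Myod1 and Myog. The median over the tested genes was 1.25 without RT_ICI replicate 1, 1.41 without ICI replicate 3 and 2.00 to 2.57 without any other single library. The filter was run anew in each of these fits, so these medians are over 35 or 36 genes and not the same 34. Of the fast genes 12 lay above 0 and Myh2 below, of the shared genes all 10 lay above, and the slow genes divided 2 and 2. The slow median was -1.02 over all 7 genes with no filter on low counts and -0.34 with the replicate number as a block. It was -0.02 over 5 genes with scaling without the mitochondrially encoded genes. Without any single library other than ICI replicate 1 it lay between -0.90 and -0.09, over 5 or 6 genes. The median of Myod1 and Myog was 0.20 with limma-voom and 0.28 without ICI replicate 1. The values of Myh2, Mb and Myog turned to 1.18, 0.89 and 0.48 with limma-voom, so no direction is given for these 3 genes or for those 2 lists. The medians have no test. DESeq2 on the same counts called 7 of the 34 genes higher (Eno3, Mybpc2, Myh4, Myom1, Myoz1, Pygm and Tcap), with 20.4% of all tested genes called, and limma-voom called Eno3 alone, with 8.91% called.

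**Figure D5:**
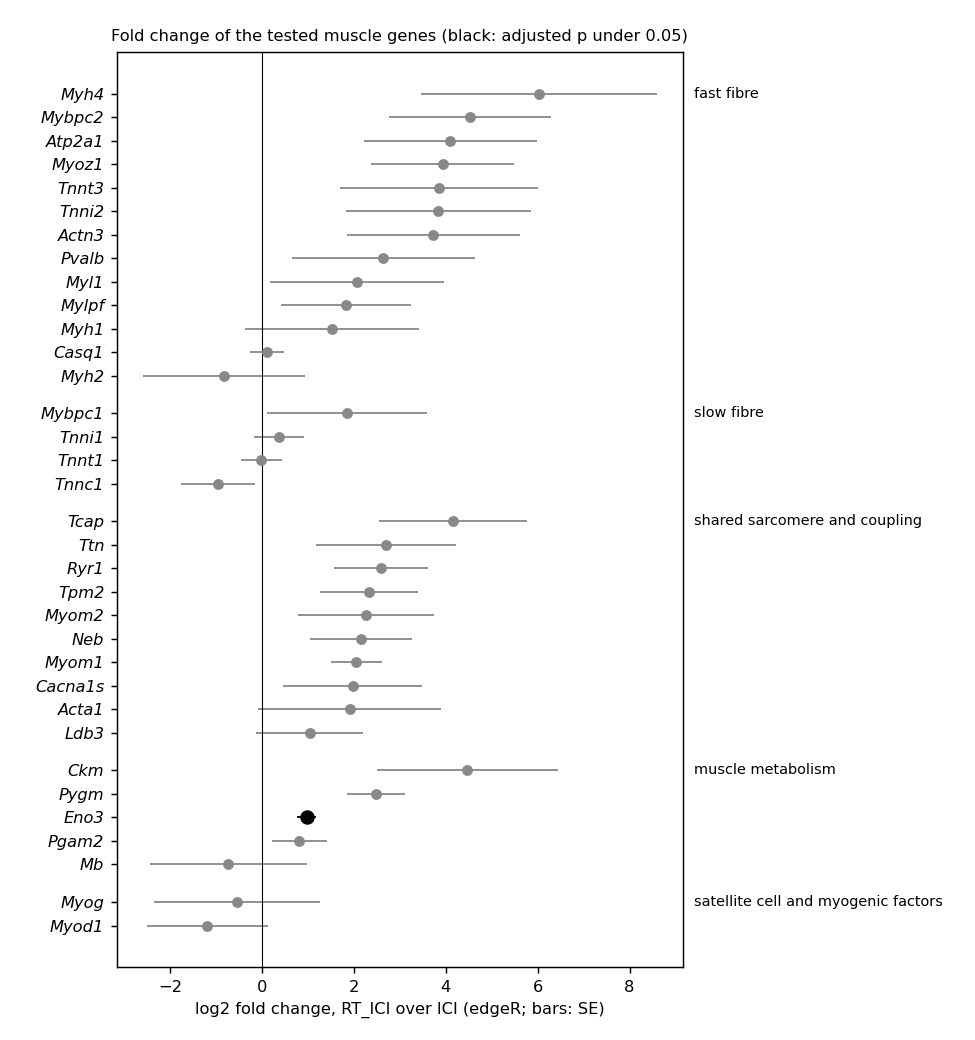
Fold change of the 34 tested genes between RT_ICI and ICI (log2, edgeR), with bars of 1 SE and genes sorted within each list. Only Eno3 (black) has an adjusted p under 0.05, and Myh4 has the largest fold change, 6.03, with a bar of 2.56 to either side.

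Other genes of mature muscle, 42 in a list that holds none of the 39, followed the same libraries. Their summed level was 254, 203 and 91.9 CPM in ICI and 1355, 709 and 148 CPM in RT_ICI, the order of libraries seen for the summed 39 genes. Among the 39 tested, genes called higher by edgeR included Stac3 (log2 fold change 1.73), a part of the coupling complex, and Tmod4 (2.23), a cap of thin filaments, and none was called lower. Des, desmin, the intermediate filament of all muscle, was the most abundant, with 89.0, 57.7 and 9.22 CPM in ICI and 536, 153 and 27.2 CPM in RT_ICI. Trim63 and Fbxo32, ubiquitin ligases of muscle protein breakdown, reached 104 and 89.1 CPM in RT_ICI replicate 1. Trim63 was as high in ICI replicate 3 (34.3 CPM) as in ICI replicates 1 and 2 (34.9 and 33.0 CPM), although Acta1 was not.

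Genes of developing and regenerating muscle differed among themselves. Their summed level was 194.5 to 216 CPM in ICI and 175 to 181 CPM in RT_ICI, so that the groups did not overlap. None of the 11 tested was called. That sum was led by Pax3, at 107 to 167 CPM, a factor that melanocytes share with muscle precursors. Chosen after their values were seen, Myh3 and Myh8, the embryonic and perinatal heavy chains, reached at most 4.89 CPM (RT_ICI replicate 1) and 1.76 CPM (ICI replicate 2). Chosen in the same way, Myf6, a myogenic factor of mature fibres, measured 2.67, 1.99 and 0 CPM in ICI and 5.07, 4.08 and 0 CPM in RT_ICI. Myf6 and Myh8 were thus at 0 in ICI replicate 3 and RT_ICI replicate 4 only, as Myod1 and Myog were.

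Outside all lists, the genes whose levels followed the 39 most closely included known muscle genes. Over the 6 libraries, 294 genes that varied by at least 4 on the log2 scale were ranked by Pearson's r with the mean log2 level of the tested genes other than Tpm2. The 10 highest were Ckmt2, Ano5, Hspb7, Nrap, Trim72, Rbm24, Abra, Dusp13, Alpk2 and Ppp1r3a, with r from 0.983 to 0.999. Ckmt2, mitochondrial creatine kinase, was first, with 0.633, 0.503 and 0 CPM in ICI and 2.80, 1.51 and 0.0933 CPM in RT_ICI. Nrap, an actin-binding protein of myofibril assembly, was the most abundant of them in RT_ICI replicate 2, at 50.4 CPM. None of the 10 was called, and the 6 points share their libraries and depth.

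Markers of the other tissues that a tumour piece can hold were summed beside the muscle genes. Adipocyte genes summed to 55.1, 44.5 and 85.5 CPM in ICI and 270, 157 and 204 CPM in RT_ICI, with 9 of 10 tested and 3 called higher (Plin4, Lipe and Fabp4). Unlike the muscle genes summed together, the adipocyte sum was high in RT_ICI replicate 4 and its groups did not overlap. It was led by Fabp4, at 50.5 CPM in ICI replicate 1 and 126.5 CPM in RT_ICI replicate 4. Of the 9 tested, 6 had groups that did not overlap, all higher in RT_ICI, against 17.8% of all tested genes in that direction. Beside the calls given here for each tissue, 4.46% of all tested genes were called higher. The groups overlapped for Adipoq, Plin1, Lep and Pck1, named after their values were seen. The first 3 of these were highest in ICI replicate 3, at 2.2, 1.32 and 0.899 CPM. Tendon and fascia genes summed to 16.6, 12.1 and 11.6 CPM in ICI and 55.8, 44.5 and 15.5 CPM in RT_ICI, and 1 of 5 tested, Prg4, the lubricin of joints and sliding surfaces, was called higher (log2 fold change 3.41). The tendon sum was highest in RT_ICI replicates 1 and 2, the libraries with the most muscle transcript, and was led by Thbs4 (27.6 and 26.8 CPM there) and Prg4 (24.2 and 14.3 CPM). Scx did not have that order, at 1.64 to 3.42 CPM with ICI replicate 1 highest (log2 fold change 0.051). Tnmd and Mkx, named after their values were seen, held at most 3 and 4 counts in any library. Chad and Fmod had lower values in every RT_ICI library than in any ICI library (log2 fold changes -1.36 and -1.91, edgeR adjusted p 0.101 and 0.0637), and Fmod was named after its values were seen. Skin genes summed to 2.34 to 3.72 CPM in ICI and 4.53 to 5.68 CPM in RT_ICI, and none of 3 tested was called. Most of that sum was Sbsn, at 1.98 to 2.72 CPM in ICI and 3.27 to 4.19 CPM in RT_ICI. The keratinocyte genes Krt5, Krt14, Krt10 and Lor, named after their values were seen, held at most 5 counts in any library.

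Other contractile cell types had another order of libraries. Smooth muscle and pericyte genes summed to 120, 93.5 and 215 CPM in ICI and 109, 88.7 and 90.1 CPM in RT_ICI, and none of 10 tested was called. They were highest in ICI replicate 3, where the skeletal genes were lowest. Cardiac genes summed to 9.71 to 13.7 CPM in ICI and 19.1 to 22.4 CPM in RT_ICI, so that the groups did not overlap. Of 4 tested, 1, Myh6, was called higher (log2 fold change 2.43), at 1.81, 3.76 and 3.36 CPM in RT_ICI. Over all tested genes 4.46% were called higher. Schwann cell and nerve genes, led by Mbp at 555 to 915 CPM, summed to 640.5 to 712 CPM in ICI and 806 to 1031 CPM in RT_ICI. Of the 5 brown fat genes only Ppargc1a, at 47.4 to 108 CPM, was high enough to be tested. Of the 8 melanocyte genes, all tested, 1, Mlana, was called higher (log2 fold change 0.75). Among these 8 genes 5 had log2 fold changes below 0 and 3 above, with a median of -0.091. The part of adipose, tendon and nerve tissue in the muscle results was not tested.

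Overlap with other genes limits a few of the 39. Of exon bases, 27.6% lie under Gm49540 for Mb, 21.9% under Rabep2 for Atp2a1, 20% under Gm37759 for Cacna1s and 15.5% under A930016O22Rik for Ckm, each on the other strand. Of the longest Myl1 transcript 38.9% is nearly identical to the pseudogene Mylf-ps. The values of these 5 genes are uncertain to that extent.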

How the data were processed

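Total RNA from B16 tumours was sequenced in 6 libraries, 2 groups of 3, grouped by the labels. The authors deposited whole-number read counts per gene for 34665 Ensembl rows. The submitters' processing notes name HISAT2 for alignment and GRCm38 and mm10 as builds. The counting tool, annotation release, strand setting and versions were not given in the sources used here. Rows with no symbol (83) kept their identifier. Positions and exon lengths came from GENCODE M21 on GRCm38 (33888 rows matched), and stretches nearly identical to another gene (200 bases or more, 95% identity) from blastn 2.17.0.

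Genes kept by filterByExpr (16924) were scaled by TMM and tested with the robust quasi-likelihood test of edgeR 4.0.16 in R 4.3.3, Benjamini-Hochberg adjusted over all of them, and called under 0.05. The test was checked on counts simulated with the same dispersion for all genes. Most of the muscle genes spread far more widely between libraries, so that check does not cover them. Levels are CPM on the effective library size. Totals of 22543721 to 45624013 counts make 3 counts, the floor used, 0.0658 to 0.133 CPM. No 2 libraries agreed within sampling noise (chi-square per degree of freedom at least 36.3).

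The 39 genes and the 10 other lists (125 genes, 121 found) were chosen with earlier results of these data known. Values in every library are printed for the heavy chains, the slow and the satellite and myogenic genes, the 5 most abundant fast and shared genes, the 3 most abundant metabolic genes, and any gene called or with groups apart. From the other lists up to 4 abundant genes and any called gene could be named, and some of these are not reported here. Alternatives were DESeq2 1.42.0, limma-voom (limma 3.58.1), other scalings and filters, a replicate block and leaving out each library.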

Additional observations from a re-analysis of the deposited data

How the results depend on the processing

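Of the 34 tested genes, 27 kept the sign of their fold change in every fit, and of 508 values under an alternative 460 kept their sign and their side of the threshold. The number of the 39 genes called higher in RT_ICI, 1 by edgeR, was 7 with DESeq2, 2 with robust estimation off, 3 at an adjusted p under 0.1, 0 with a minimum log2 fold change of 1, and 0 to 2 when single libraries were left out. The genes called higher among all tested, 754, became 1746 with DESeq2, 1802 at an adjusted p under 0.1, 431 with the minimum fold change, and 0 to 1564 without single libraries. Those called lower, 799, became 1703 with DESeq2, 1833 at an adjusted p under 0.1, 156 with the minimum fold change, 1507 with no filter, 497 with upper-quartile scaling, and 0 to 1545 without single libraries. The cause was not tested.

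The replicate number as a block gave 21 of the 34 genes called higher, with 400 higher and 245 lower over all genes (3.81%). The labels do not say that a number marks a shared animal or day, and only 2 numbers are shared. Deviations of same-numbered libraries correlated at 0.353 (replicates 1) and 0.091 (replicates 2), while ICI replicate 3 and RT_ICI replicate 4, which share no number, correlated at 0.27. By construction, the block leaves ICI replicate 3 and RT_ICI replicate 4, the libraries with least muscle transcript, without weight in the comparison.

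Values that changed sign belonged to 7 genes, none called. Without single libraries, Casq1 ranged from -0.16 to 0.32, Tnnt1 from -0.34 to 0.46, Tnni1 from -0.028 to 1.09, Tnnc1 from -1.47 to 0.28, Mb from -2.35 to 0.54 and Myog from -2.10 to 1.01. The positive values of Tnnc1, Mb and Myog included those without ICI replicate 1. Tnnt1 was 0.018 with a filter of 1 CPM, 0.12 with limma-voom and 0.072 with upper-quartile scaling, and Tnni1 was -0.18 with the block. With limma-voom Myh2 was 1.18, Mb 0.89 and Myog 0.48.

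The slow median was -1.02 with no filter, and it was also below 0 under other alternatives given with the medians. Without Mybpc1, its largest gene, the slow share in RT_ICI averaged 0.000562%, which was below the ICI mean without that gene. With Mybpc1 the order of the means was the other way, at 0.00192% in RT_ICI and 0.00128% in ICI. The groups overlapped either way. Without Eno3, its largest gene, the metabolic share in ICI averaged 0.00188%. Per kilobase, Myh1 was 59.9% and Myh7 8.13% of heavy chain in ICI replicate 1, Myh1 8.89% and Myh4 90.8% in RT_ICI replicate 1, and Myh2 1.24% and Myh4 88.5% in RT_ICI replicate 2. A ratio of fast to slow from heavy chains alone could not be given, as Myh7 had 0 counts in RT_ICI replicate 2. Low counts limit the make-up of ICI replicate 3 (7 heavy chain counts) and RT_ICI replicate 4 (53), although the first is among the deeper libraries and the second is the shallowest.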
